A study of Mus musculus with 12 samples.

Results

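The genes described here are 9 mouse genes of zinc handling, chosen by name from the rows of a count table of 37991 genes: the zinc exporters Slc30a8, Slc30a1, Slc30a5 and Slc30a7, the zinc importers Slc39a6, Slc39a7 and Slc39a14, and the metallothioneins Mt1 and Mt2. All 9 had a row, and all 9 were among the 15961 genes that passed the filter on low counts. RNA was sequenced from whole pancreatic islets of Tg7 mice, which overexpress miR-7a2 specifically in β-cells, and of their wild-type littermates (Wt), to ask how the loss of β-cell identity alters islet gene expression. All animals were C57BL/6 males of 2 weeks (2w) or 12 weeks (12w) of age. The study describes its Tg7 mice as normoglycaemic at the younger and diabetic at the older age. Each of the 4 groups (Wt 2w, Tg7 2w, Wt 12w and Tg7 12w) had 3 libraries, and every library was a pool of islets from at least 3 animals. The p-values therefore measure the spread between pools, not between single mice, and the effect of miR-7a2 cannot be told apart from that of hyperglycaemia at 12w.

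β-cells pack insulin with zinc into secretory granules, where insulin hexamers form around zinc ions, and zinc leaves the cell with insulin during exocytosis. Members of the Slc30 (ZnT) family move zinc out of the cytosol into organelles or out of the cell, whereas members of the Slc39 (ZIP) family move it into the cytosol. Metallothioneins are small cysteine-rich proteins that bind zinc and copper and buffer their free levels. Free zinc activates the transcription factor MTF1, which binds metal response elements in the promoters of Mt1, Mt2 and Slc30a1, so these genes are widely used as readouts of cytosolic zinc. Metallothionein genes also respond to other metals, glucocorticoids and oxidative stress.

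Because the metal response element links Mt1, Mt2 and Slc30a1, their promoters are shown, from 250 bases before the RefSeq transcription start to the first bases of the gene, 5′ to 3′ on the gene's strand in GRCm38.p6, with each match to the element's core (TGCACNC or TGCGCNC, on either strand) in capitals. The Mt2 window lies at chr8:94172368-94172667 (+), the Mt1 window at chr8:94178839-94179138 (+) and the Slc30a1 window at chr1:191906531-191906830 (+).
Mt2: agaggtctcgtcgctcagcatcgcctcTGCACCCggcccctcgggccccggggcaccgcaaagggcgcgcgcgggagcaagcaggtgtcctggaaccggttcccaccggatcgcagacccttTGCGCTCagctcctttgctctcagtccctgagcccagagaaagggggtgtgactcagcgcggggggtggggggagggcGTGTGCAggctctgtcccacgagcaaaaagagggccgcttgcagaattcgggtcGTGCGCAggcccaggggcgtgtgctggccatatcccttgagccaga
Mt1: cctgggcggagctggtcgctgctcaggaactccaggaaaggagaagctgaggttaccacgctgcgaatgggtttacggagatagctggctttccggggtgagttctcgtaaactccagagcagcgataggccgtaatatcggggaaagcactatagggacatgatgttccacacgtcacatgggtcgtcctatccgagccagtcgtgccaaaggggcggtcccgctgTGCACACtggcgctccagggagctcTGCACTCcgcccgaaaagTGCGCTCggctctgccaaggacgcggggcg
Slc30a1: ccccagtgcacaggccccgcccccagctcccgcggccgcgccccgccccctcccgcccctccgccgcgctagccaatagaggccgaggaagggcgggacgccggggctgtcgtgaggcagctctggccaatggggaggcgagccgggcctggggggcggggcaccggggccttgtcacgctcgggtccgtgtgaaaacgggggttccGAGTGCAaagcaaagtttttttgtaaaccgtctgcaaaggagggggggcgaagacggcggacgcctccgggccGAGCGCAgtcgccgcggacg

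Mt2 held 4 cores, and 0.52% of the 32851 RefSeq promoters of this length held as many or more. Mt1 held 3 cores (1.97% of promoters had as many), Slc30a1 held 2 (7.11%) and Slc30a5 held 1 (25.7%), while no core lay in the windows of Slc30a7 and Slc39a7. The windows of Slc30a8, Slc39a6 and Slc39a14 were not analysed here. Counted from the start base as 1, the cores of Mt1 began at -23, 3 and 21, those of Mt2 at -223, -128, -50 and 5, and those of Slc30a1 at -43 and 31. These positions and numbers depend on the RefSeq start used. Other start sites were not examined, and cores outside the windows were not sought, so a gene may hold more elements than are shown. A match is a description of the letters in these windows, and binding was not measured.

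**Figure D1:**
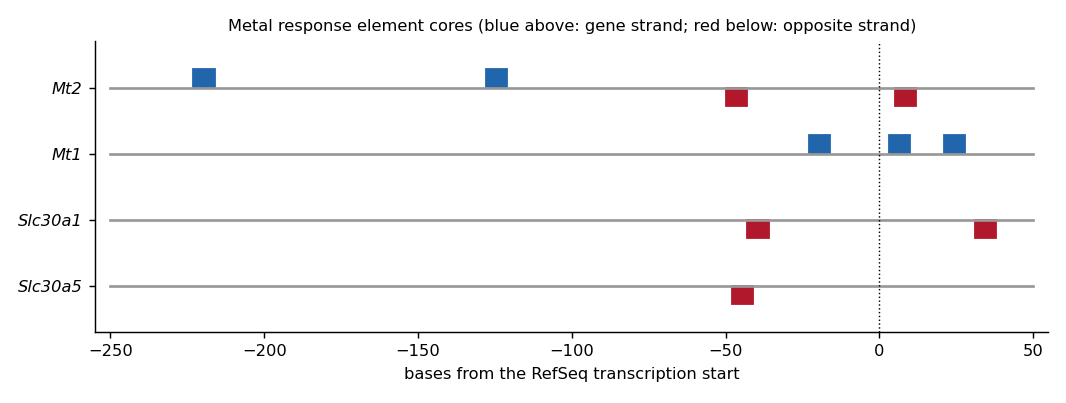
Positions of metal response element cores (boxes, 7 bases wide) in bases from the RefSeq transcription start (dotted line) for the 4 genes with a match. Boxes above a line are on the gene's strand and boxes below it on the opposite strand; Mt2 has 4 cores, Mt1 has 3, Slc30a1 has 2 and Slc30a5 has 1.

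The overexpressed miRNA belongs to the miR-7a family, and its mature sequence from RefSeq is given because it can be set against the transcripts of the members, with the seed (bases 2 to 8) in capitals.
mmu-miR-7a-5p: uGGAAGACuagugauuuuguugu
Only Mt1 of the 9 members held the matching 7 letters (GTCTTCC) in its longest 3′ UTR, which is 132 bases long, whereas 2241 of 20007 genes with a 3′ UTR (11.2%) held a match. The Mt1 match begins at UTR base 52, in the window chr8:96704129-96704154 (mm9, + strand), with the match in capitals.
Mt1 site: atcggaccaacccagcGTCTTCCtat
No match was present in the 140 bases of the Mt2 3′ UTR, nor in those of the 7 transporters, of which the longest was that of Slc30a7 (7691 bases).

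The libraries held 11610697 to 17515758 counts. They were scaled with TMM factors of 0.684 to 1.19, and levels are given as CPM, the counts scaled to a common library size with these factors. Insulin transcripts took 1.84 to 30.0% of all counts, and summed β-cell markers (8 genes, of which 7 fell at each age) were 110466 to 180134 CPM in Wt 2w, 27283 to 52309 in Tg7 2w, 198236 to 481895 in Wt 12w and 100152 to 105539 in Tg7 12w. Insulin transcripts made up most of that sum in every library, so it mainly follows insulin RNA and not the 8 markers alike. The Mir7-2 locus had 0 to 13 counts per library in all groups, and since the transgene's mature product is not read by such libraries it gives no check of the labels. Stellate and fibroblast markers moved with genotype: 6 of 9 rose at 2w and 8 of 9 at 12w, where their sum was 87.5 to 149 CPM in Wt and 385 to 407 CPM in Tg7. Of 7 endothelial markers, 5 rose at 12w (sums of 413 to 576 CPM in Wt and 820 to 883 CPM in Tg7), and all 7 fell with age in Wt, as did 6 of the 9 stellate and fibroblast markers. Of 4 tested Schwann markers, 2 rose at 12w. Over all tested genes, 6.07% were called higher and 4.55% lower at 2w, 12.5% higher and 11.2% lower at 12w, and 7.91% lower with age in Wt. The part of these markers in the members' changes was not tested. Of 10 acinar markers, Amy2b had 0 counts in every library, and the sums were 9.79 to 12.0 CPM in Wt 2w, 21.6 to 28.2 in Tg7 2w, 15.5 to 19.9 in Wt 12w and 14.99 to 15.7 in Tg7 12w, with most counts on Cela1.

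Per kilobase of exon, the metallothioneins and Slc30a8 stood far above the other members. In Wt 12w islets the mean level was 2888 ± 1618 CPM per kb (SD, n = 3) for Mt2, 2749 ± 1748 for Mt1 and 293 ± 39.4 for Slc30a8, followed by 37.2 ± 5.39 for Slc30a5, 14.97 ± 1.96 for Slc30a7, 14.6 ± 3.02 for Slc39a6, 8.47 ± 0.126 for Slc30a1, 3.66 ± 2.92 for Slc39a7 and 3.34 ± 0.335 for Slc39a14. Neighbours in this order that did not differ beyond their spread were Mt2 and Mt1, Slc30a7 and Slc39a6, and Slc39a7 and Slc39a14. By this measure Mt2 ranked 20 and Mt1 ranked 21 among 15933 genes in Wt 12w islets, but 179 and 244 in Tg7 12w islets, and Slc30a8 ranked 112 and 345, respectively.

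Islets of Tg7 mice had lower levels of 5 of the 9 members at 12w and of 2 at 2w, and no member was called higher at either age (0 by edgeR, 0 at an unadjusted p under 0.05 and 0 by DESeq2). At 12w the metallothioneins Mt1 and Mt2 fell the most, by 20.3-fold and 16.3-fold, followed by the exporters Slc30a8 (2.88-fold), Slc30a1 (2.197-fold) and Slc30a7 (1.86-fold). At 2w Mt1 and Mt2 were called, and neither call held without Wt 2w library 1. Over all 15961 tested genes, 11.2% were called lower and 12.5% higher at 12w, and 4.55% lower and 6.07% higher at 2w. The median log2 difference of the members was -0.38 at 2w and -0.90 at 12w, beside 0.03 and -0.01 for all tested genes. With age, 4 members (Mt1, Mt2, Slc30a1 and Slc30a7) rose and none fell in Wt islets, where 7.90% of all genes were called higher and 7.91% lower, and in Tg7 islets Mt2 rose and Slc30a8 fell, where 7.02% were called higher and 6.01% lower. Slc30a5, Slc39a6, Slc39a7 and Slc39a14 were called in none of the 5 comparisons (each age, the difference between the ages, and each genotype with age), with 0 calls at an unadjusted p under 0.05 in edgeR and 0 by DESeq2.

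**Figure D2:**
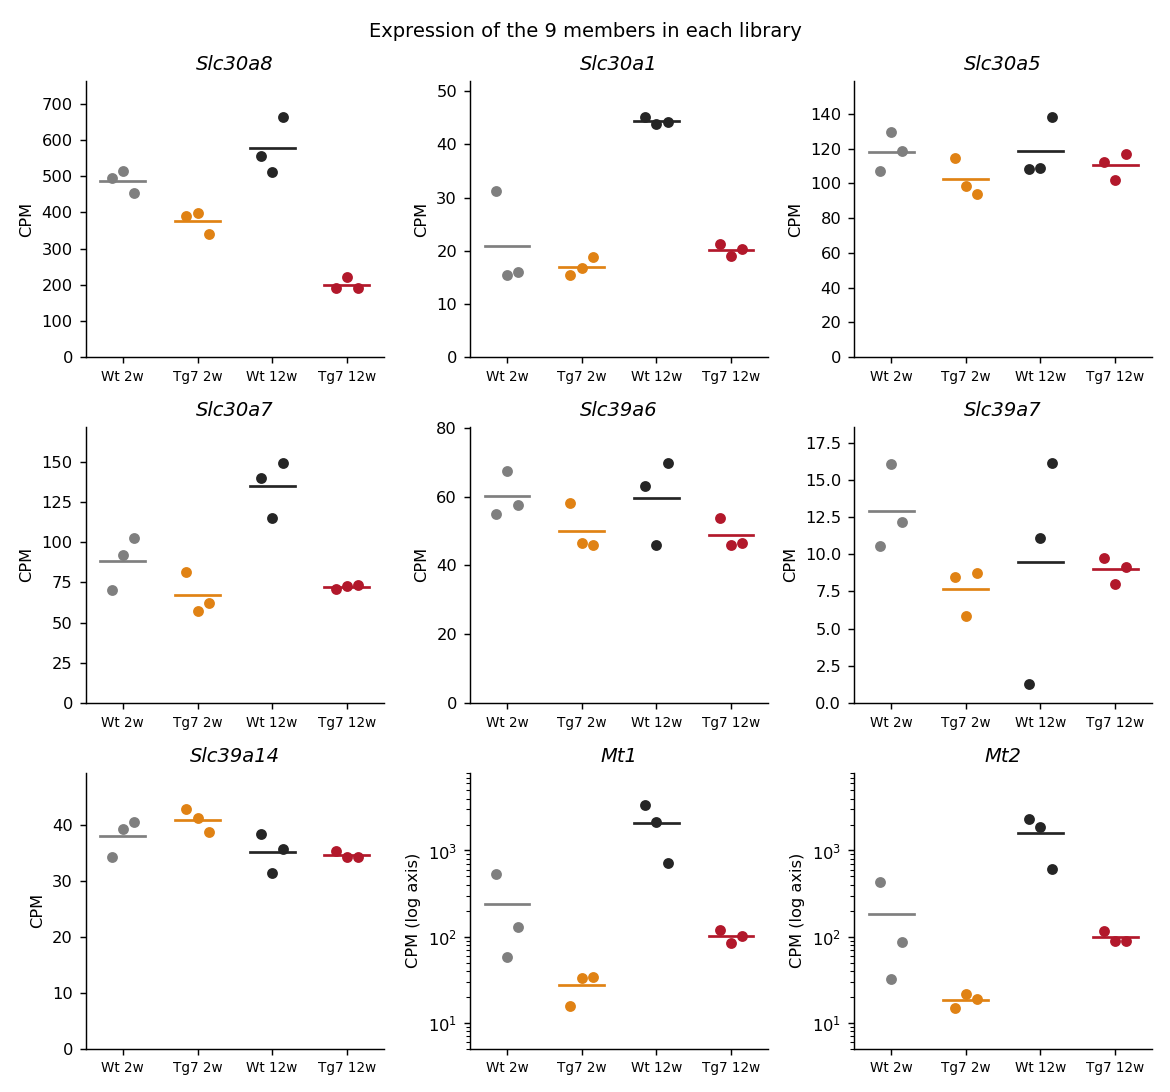
CPM of the 9 members in each of the 12 libraries (points) with the group mean (line); the axes of Mt1 and Mt2 are logarithmic and the others start at 0. The 3 Tg7 12w libraries lie below all Wt 12w libraries for Slc30a8, Slc30a1, Slc30a7, Mt1 and Mt2.

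Slc30a8 encodes ZnT8, the transporter that loads zinc into insulin granules (mm9 chr15:52127108-52167353, + strand). It had 494, 515 and 454 CPM in the Wt 2w libraries and 391, 397 and 339 CPM in the Tg7 2w libraries. At 12w it had 556, 511 and 663 CPM in Wt and 189.9, 221 and 189.8 CPM in Tg7. The groups did not overlap at either age, and the 12w Tg7 libraries were the lowest of all 12. The loss was 2.88-fold at 12w (log2 fold change -1.53 ± 0.13 SE, adjusted p = 3.93e-06, edgeR quasi-likelihood test), and the 2w difference of -0.38 ± 0.13 did not pass (adjusted p = 0.0777), although it did with DESeq2 (adjusted p = 0.0410) and with each age fitted alone (adjusted p = 0.0376). With a 2w library left out, the 2w difference ranged from -0.43 to -0.32, with an adjusted p of up to 0.227 in edgeR. In whole islets, fewer β-cells and less RNA per β-cell cannot be told apart.

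Slc30a8 was also the only member called for a difference of the Tg7 effect between the ages. The log2 effect at 12w was lower than that at 2w by -1.15 ± 0.18 (adjusted p = 0.00782), a comparison in which 0.307% of all tested genes were called lower and 0.871% higher. The call was lost without TMM factors (-0.88, adjusted p = 0.0727), a scaling under which the median of all genes was 0.25. From 2w to 12w, Slc30a8 fell in Tg7 islets by 0.91 ± 0.13 on the log2 scale (adjusted p = 0.000542), whereas in Wt islets the difference of 0.24 ± 0.13 did not pass (adjusted p = 0.220).

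Slc30a1 encodes ZnT1, the exporter at the plasma membrane (mm9 chr1:193730646-193737126, + strand). Its Wt 2w libraries had 31.3, 15.4 and 16.01 CPM, and its Tg7 2w libraries 15.5, 16.7 and 18.8 CPM. The 12w libraries had 45.1, 43.8 and 44.3 CPM in Wt and 21.3, 19.0 and 20.3 CPM in Tg7. The groups overlapped at 2w, where Wt library 1 stood apart from the other two, and did not overlap at 12w. Slc30a1 fell 2.197-fold at 12w (log2 fold change -1.14 ± 0.22, adjusted p = 0.00225), and at 2w the difference was -0.30 ± 0.22 (adjusted p = 0.421). Between the ages it rose in Wt islets by 1.09 ± 0.22 (adjusted p = 0.00471), and the difference was 0.25 ± 0.22 in Tg7 islets (adjusted p = 0.504). The Tg7 effect at 12w minus that at 2w was -0.84 ± 0.31 (adjusted p = 0.236), which passed without Wt 2w library 1 (-1.24, adjusted p = 0.0101). Of its 5244 exon bases, 468 overlap 1700034H15Rik on the opposite strand, and whether the counting used strand is not known.

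Slc30a7 encodes ZnT7, which carries zinc into the early secretory pathway (mm9 chr3:115641891-115710324, - strand). It had 70.4, 91.8 and 102.7 CPM in Wt 2w and 81.6, 57.3 and 62.1 CPM in Tg7 2w. At 12w the values were 140.3, 115.3 and 149 CPM in Wt and 71.0, 72.8 and 73.5 CPM in Tg7. The groups overlapped at 2w only. Slc30a7 fell 1.86-fold at 12w (log2 fold change -0.90 ± 0.16, adjusted p = 0.00143), a call that was lost without TMM factors (-0.45, adjusted p = 0.0980). The 2w difference was -0.40 ± 0.16 (adjusted p = 0.134), which passed without Tg7 2w library 1 (-0.56, adjusted p = 0.0453). The rise from 2w to 12w in Wt islets was 0.61 ± 0.16 (adjusted p = 0.0210), lost when Wt 2w library 1 (adjusted p = 0.0896), Wt 2w library 2 (adjusted p = 0.0651) or Wt 12w library 1 (adjusted p = 0.0515) was left out. In Tg7 islets the age difference was 0.11 ± 0.16 (adjusted p = 0.700).

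Slc30a5 encodes ZnT5, another exporter of the early secretory pathway (mm9 chr13:101572604-101603382, - strand). Its libraries ranged from 106.9 to 129.6 CPM in Wt 2w, from 94.1 to 114.7 in Tg7 2w, from 108.0 to 138.1 in Wt 12w and from 102.2 to 116.8 in Tg7 12w. The groups overlapped at both ages, with log2 differences of -0.21 ± 0.13 at 2w (adjusted p = 0.341) and -0.10 ± 0.13 at 12w (adjusted p = 0.639). At 12w, 3 of the 4 exporter members were called lower, beside 11.2% of all tested genes, and the ranges of Slc30a5 overlapped. Of the 4 other tested Slc30 genes, 1 was called lower at 12w (Slc30a4, described below).

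The 3 importers gave no call in Tg7 against Wt. Slc39a6 (ZIP6, a plasma membrane importer; mm9 chr18:24738382-24762318, - strand) ranged from 55.1 to 67.4 CPM in Wt 2w, from 45.9 to 58.1 in Tg7 2w, from 46.0 to 69.8 in Wt 12w and from 45.9 to 53.9 in Tg7 12w. The groups overlapped, and the log2 differences were -0.26 ± 0.16 at 2w (adjusted p = 0.322) and -0.29 ± 0.16 at 12w (adjusted p = 0.219), the latter passing among the alternatives only when Wt 12w library 2 was left out (-0.45, adjusted p = 0.0392). Slc39a14 (ZIP14, an importer of zinc and iron; mm9 chr14:70703274-70751232, - strand) ranged from 31.4 to 43.0 CPM over all 12 libraries. Its log2 differences were 0.11 ± 0.12 at 2w (adjusted p = 0.621) and -0.02 ± 0.12 at 12w (adjusted p = 0.914), and without TMM factors the 12w value was 0.42 (adjusted p = 0.0385), beside a median of 0.43 over all genes under that scaling.

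Slc39a7 encodes ZIP7, which releases zinc from the endoplasmic reticulum (mm9 chr17:34165212-34168635, - strand), and its counts are uncertain. Of its 2594 exon bases, 2078 are also annotated to Gm20427 on the same strand, so reads there could be dropped or split in the counting. It had 10.6, 16.1 and 12.1 CPM in Wt 2w, 8.48, 5.85 and 8.74 CPM in Tg7 2w, 1.26, 11.1 and 16.1 CPM in Wt 12w and 9.76, 8.02 and 9.15 CPM in Tg7 12w. Wt 12w library 1, with 10 counts, stood far below the other 11 libraries, and its Gm20427 level of 0.882 CPM lay within the range of the others. The groups did not overlap at 2w and did at 12w, with log2 differences of -0.74 ± 0.50 (adjusted p = 0.368) and -0.12 ± 0.50 (adjusted p = 0.896). Without Wt 12w library 1 the 2w difference passed (-0.75, adjusted p = 0.0480).

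Mt1 (mm9 chr8:96702989-96704225, + strand) and Mt2 (mm9 chr8:96696518-96697467, + strand) are neighbours on chromosome 8, and their annotated transcripts share no 50-base stretch with each other or with another protein-coding gene, the longest run common to both being 20 bases. Mt1 had 535, 58.6 and 128.6 CPM in Wt 2w and 15.8, 33.5 and 34.0 CPM in Tg7 2w. At 12w it had 3343, 2153 and 714 CPM in Wt and 118.9, 84.3 and 102.2 CPM in Tg7. The groups did not overlap at either age, but the Wt libraries spread widely, from 58.6 to 535 CPM at 2w and from 714 to 3343 CPM at 12w. Mt1 fell 8.67-fold at 2w (log2 fold change -3.12 ± 0.70, adjusted p = 0.0116) and 20.3-fold at 12w (-4.34 ± 0.73, adjusted p = 0.000778). The 2w call was lost without Wt 2w library 1 (-1.76, adjusted p = 0.0659).

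Mt2 followed the same order. It had 433, 31.9 and 86.9 CPM in Wt 2w and 14.8, 21.8 and 18.9 CPM in Tg7 2w. At 12w the values were 2343, 1871 and 603 CPM in Wt and 115.5, 89.6 and 89.8 CPM in Tg7. The groups did not overlap at either age, and Wt 2w library 1 again stood above the other libraries of its group. Mt2 fell 9.96-fold at 2w (log2 fold change -3.32 ± 0.73, adjusted p = 0.0109) and 16.3-fold at 12w (-4.03 ± 0.75, adjusted p = 0.00157), and the 2w call was lost without Wt 2w library 1 (-1.69, adjusted p = 0.0563). The differences between the Tg7 effects at 12w and 2w were -1.23 ± 0.91 for Mt1 (adjusted p = 0.593) and -0.71 ± 0.95 for Mt2 (adjusted p = 0.799). With 1 library left out they ranged from -2.58 (without Wt 2w library 1) to -0.72 (without Wt 12w library 1) for Mt1 and from -2.33 (without Wt 2w library 1) to -0.21 (without Wt 2w library 2) for Mt2, and none passed.

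Both metallothioneins rose with age. In Wt islets the log2 rise from 2w to 12w was 3.103 ± 0.69 for Mt1 (adjusted p = 0.00777) and 3.12 ± 0.71 for Mt2 (adjusted p = 0.00947), the latter lost without Wt 2w library 3 (2.78, adjusted p = 0.0521). Without Wt 2w library 1 the rises were 4.46 and 4.75, respectively. In Tg7 islets Mt2 rose by 2.41 ± 0.71 (adjusted p = 0.0387), and the Mt1 difference was 1.87 ± 0.67 (adjusted p = 0.0821). The Mt2 call in Tg7 islets was lost when any of the 6 Tg7 libraries was left out, with adjusted p from 0.0778 to 0.112, and the Mt1 difference passed with no filter on low counts (adjusted p = 0.00793) and without any of Wt 2w library 1, Wt 2w library 2 and Wt 12w library 4. The ranges of Tg7 12w and Wt 2w libraries overlapped for both genes.

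The counts of both genes together made up 0.388% of all counts (Wilson 95% interval 0.385 to 0.392%) in Wt 12w library 1 and 0.00364% (0.00335 to 0.00395%) in Tg7 2w library 1, the extremes of the 12 libraries. These intervals cover counting error only, and the spread between pools was far wider. The ratio of Mt2 to Mt1 counts lay between 0.545 and 1.06 in all libraries, so that both genes kept nearly the same order of libraries. Within Wt 12w, libraries 1, 2 and 4 stood in the order 3343, 2153 and 714 CPM for Mt1 beside 481895, 367247 and 198236 CPM for the summed β-cell markers. Most of that sum was insulin RNA, which took 30.0, 27.0 and 14.8% of the counts of these libraries. Within Wt 2w, library 1 was the highest in Mt1, in Mt2, in Slc30a1 and in the summed β-cell markers (180134 CPM, against 116211 and 110466 CPM). That library was also the highest of Wt 2w in the summed markers of α-cells (48070 CPM), PP cells (6469 CPM), endothelial cells (1245 CPM) and stellate cells and fibroblasts (467 CPM). The same held for the copper and iron sum (2159 CPM), but not for the sums of δ-cell and acinar markers. Slc30a1 did not follow Mt1 within Wt 12w, where its 3 libraries lay between 43.8 and 45.1 CPM. The same order of the Wt 12w libraries was found for the summed markers of δ-cells (4849, 3692 and 1993 CPM), α-cells (46523, 32483 and 25581 CPM) and PP cells (7335, 4911 and 3318 CPM) and for the summed genes of copper and iron handling (3192, 2673 and 2452 CPM), so that it was not particular to β-cell markers. Macrophage, lymphocyte, Schwann and erythroid sums had this order as well. It was reversed for the summed markers of endothelial cells (413, 492 and 576 CPM), of stellate cells and fibroblasts (87.5, 115.9 and 148.9 CPM) and of ducts (407.6, 593.8 and 594.5 CPM), and acinar markers followed neither order. The part of these levels in the metallothionein result was not tested.

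**Figure D3:**
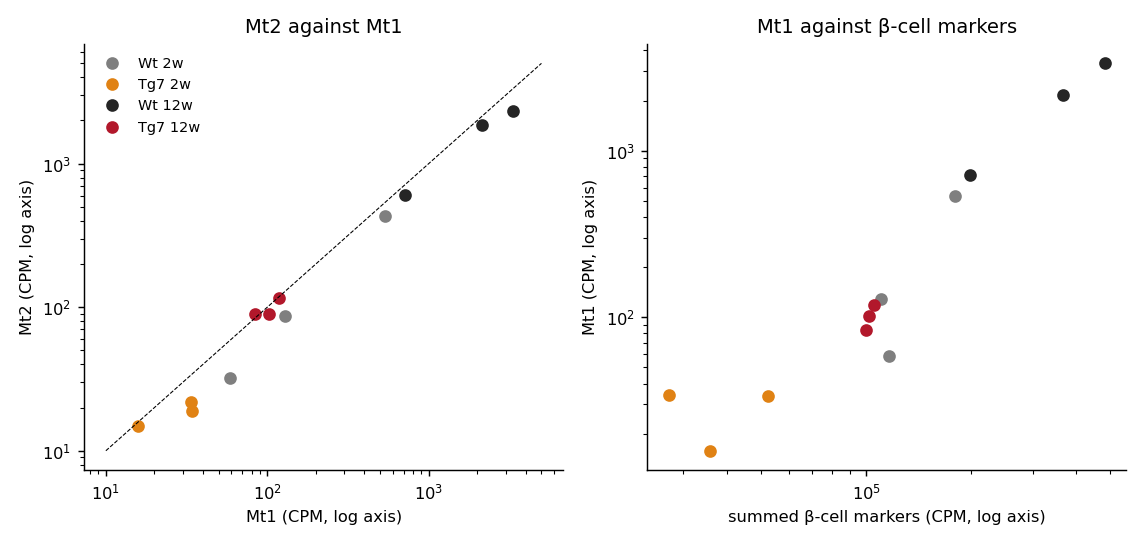
Left, Mt2 against Mt1 CPM in each of the 12 libraries (log axes; dashed line, equal levels). Right, Mt1 CPM against the summed CPM of 8 β-cell markers, most of it insulin RNA (log axes). The 3 Wt 12w libraries have the highest Mt1 levels, 714 to 3343 CPM, and the 3 Tg7 2w libraries the lowest, 15.8 to 34.0 CPM.

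Markers of other sources of metallothionein regulation or RNA were set beside this result, and their part in it was not tested. Over all tested genes, 4.55% were called lower and 6.07% higher at 2w, and 11.2% lower and 12.5% higher at 12w. Of 9 glucocorticoid target genes, 1 fell at 2w (Per1, chosen after its value was seen) and 1 at 12w (Klf9), and the latter count lay near the share over all genes. With any of the 6 libraries of 2w left out, the count at 2w was 0. Their summed level was 414 to 439 CPM in Wt 2w, 409 to 494 in Tg7 2w, 442 to 488 in Wt 12w and 391 to 423 in Tg7 12w. Of 16 genes of copper and iron handling, 2 fell at 2w and 5 fell at 12w (3 called without Tg7 12w library 1 or without Tg7 12w library 2), with a median log2 difference of 0.03 at 2w and -0.29 at 12w. The largest falls at 12w were those of Tfrc, the transferrin receptor (-2.07, adjusted p = 0.000404; -1.47 without Wt 12w library 4), Atp7a, a copper exporter (-1.84, adjusted p = 0.0395), and Ftl1, the ferritin light chain (-1.20, adjusted p = 0.000403). Atp7a had 9.45, 6.99 and 62.1 CPM in the Wt 12w libraries and 7.15 to 7.80 CPM in Tg7 12w, so that the ranges overlapped and Wt library 4 stood apart. Without it the Atp7a difference was -0.12 (adjusted p = 0.787), and the call was also lost without any of the 3 Tg7 12w libraries (adjusted p from 0.106 to 0.114). Of 14 genes listed with the insulin granule, 5 fell at 2w, and 3 fell and 3 rose at 12w. This list includes G6pc2, an enzyme of the endoplasmic reticulum and not a granule protein, which fell at 2w (-3.56) and at 12w (-3.40). The other falls at 12w were those of the insulin genes.

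**Figure D4:**
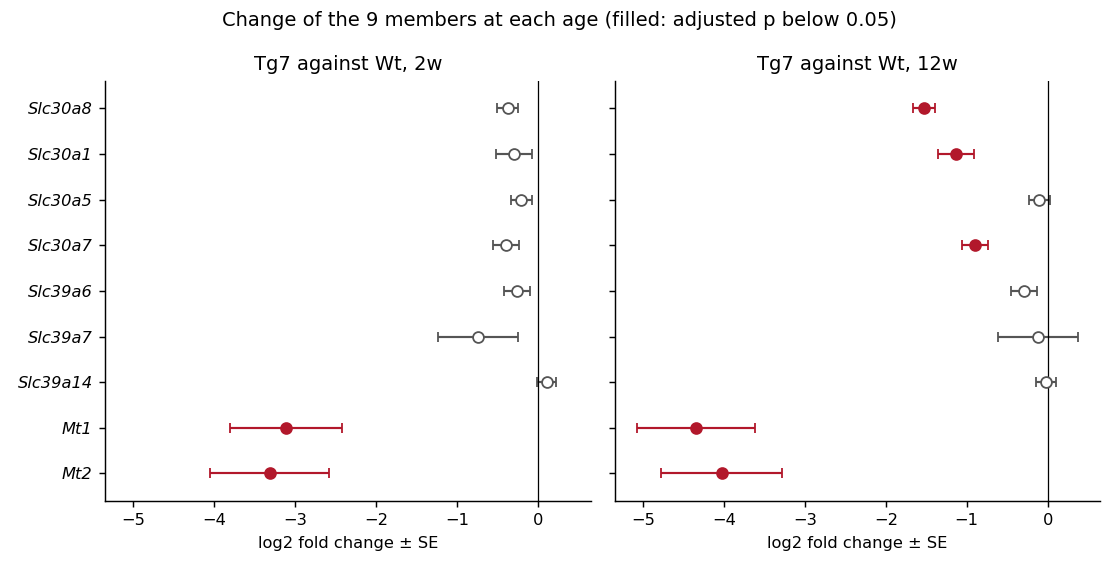
Log2 fold change of Tg7 against Wt at 2w (left) and 12w (right) for the 9 members, with the standard error as bars; filled symbols passed an adjusted p of 0.05. Mt1 and Mt2 passed at 2w, and Slc30a8, Slc30a1, Slc30a7, Mt1 and Mt2 passed at 12w.

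The wider family was described from 20 other genes: the remaining Slc30 and Slc39 transporters, Mt3, Mt4 and Mtf1. Of these, 16 passed the filter on low counts, and Mt4 had no count in any library. None of the 16 was called at 2w by edgeR or DESeq2 (2 had an unadjusted p under 0.05 in edgeR), where their median log2 difference was 0.14. At 12w 2 rose and 2 fell, with a median of -0.22, beside 12.5% of all tested genes called higher and 11.2% called lower.

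Slc39a11 (ZIP11, an intracellular zinc transporter) had 14.999, 19.5 and 22.9 CPM in the Wt 12w libraries and 68.0, 53.5 and 65.2 CPM in the Tg7 12w libraries. The groups did not overlap, and the rise was 3.23-fold (log2 fold change 1.69 ± 0.17, adjusted p = 1.02e-05). At 2w its ranges overlapped, with 19.0 to 23.7 CPM in Wt and 23.35 to 26.5 CPM in Tg7, and the difference between the ages was 1.44 ± 0.23 (adjusted p = 0.00770). Slc39a13 (ZIP13, a transporter of the secretory pathway in connective tissue cells) had 39.7, 49.1 and 29.7 CPM in Wt 12w and 62.7, 61.9 and 59.8 CPM in Tg7 12w. It rose without overlap of the groups (log2 fold change 0.64 ± 0.17, adjusted p = 0.0130), a call that was lost with each age fitted alone (adjusted p = 0.0547). The stellate and fibroblast markers given above rose as well, and their part in this result was not tested.

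Mtf1, the zinc-sensing activator of the metallothionein genes, had 61.8, 52.6 and 57.9 CPM in Wt 12w and 34.0, 32.6 and 31.5 CPM in Tg7 12w. The groups did not overlap, and Mtf1 fell 1.75-fold (log2 fold change -0.81 ± 0.12, adjusted p = 0.000248), a call that was lost without TMM factors (-0.36, adjusted p = 0.0617). At 2w the difference was -0.22 ± 0.12 (adjusted p = 0.236). Slc30a4 (ZnT4, a vesicular exporter) had 70.2, 49.7 and 116.3 CPM in Wt 12w and 47.3, 39.5 and 49.8 CPM in Tg7 12w. Its ranges overlapped, and the fall of 0.79 ± 0.25 on the log2 scale (adjusted p = 0.0325) was lost without Wt 12w library 4 (-0.39, adjusted p = 0.151), without any of the 3 Tg7 12w libraries (adjusted p from 0.0673 to 0.127), with each age fitted alone (adjusted p = 0.0637) and without TMM factors (-0.38, adjusted p = 0.315).

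**Figure D5:**
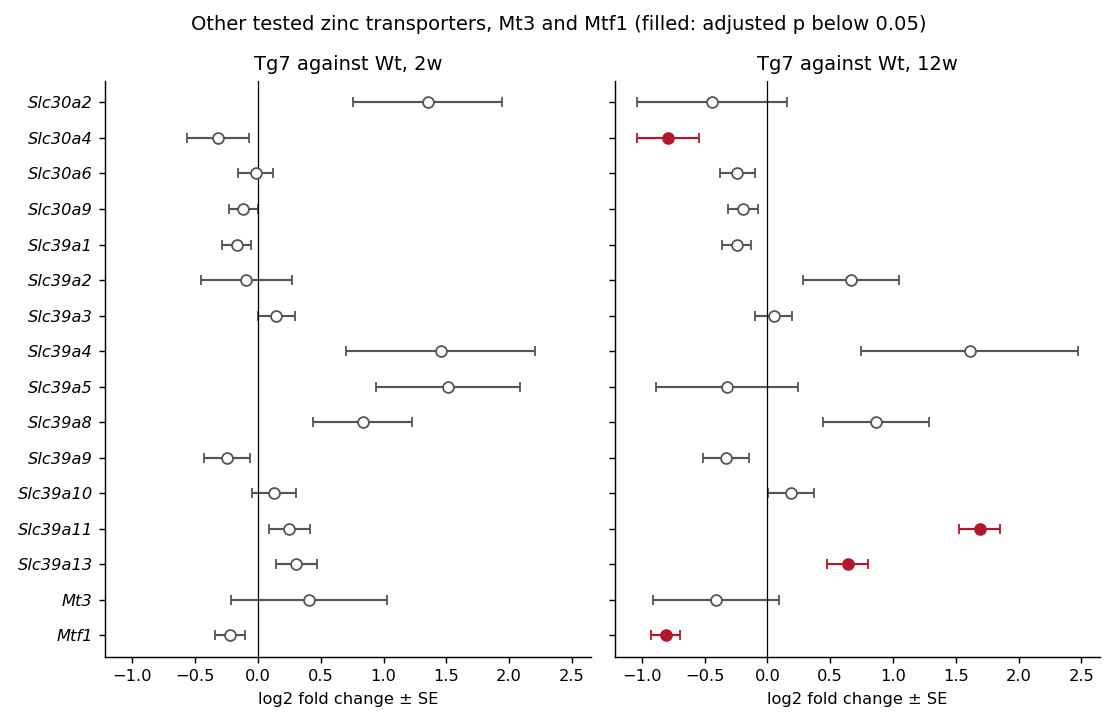
Log2 fold change of Tg7 against Wt at 2w (left) and 12w (right) for the 16 tested genes of the wider family, with the standard error as bars; filled symbols passed an adjusted p of 0.05. None passed at 2w; at 12w Slc39a11 and Slc39a13 were higher and Slc30a4 and Mtf1 lower.

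The genes most like Slc30a8 and most like Mt1 were taken by the Pearson correlation of log2 CPM over the 12 libraries, a measure that is dominated by the differences between the groups and in which the genes share libraries and scaling. For Slc30a8 they were Spock1 (r = 0.972), Cyp4f39 (0.970), Tmem215 (0.963), Maob (0.956) and Zfp651 (0.955). For Mt1 they were Mt2 (r = 0.992), Creb3l1 (0.976), A530058N18Rik (0.974), Coq10a (0.972) and Prkag2 (0.970). Mt1 was not among the 5 genes of Slc30a8, nor Slc30a8 among those of Mt1.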

How the data were processed

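RNA of pooled islets was sequenced as paired-end reads from NEB Ultra II libraries. Per the submitters' processing notes, the authors used bcl2fastq 2.20.0 for base calls, Trimmomatic for trimming, TopHat2 2.0.11 for alignment against mm9 and featureCounts to count reads on Ensembl genes; no source used here states the strand setting. The deposited values are raw counts per gene (37991 genes, 12 libraries), all used, with no normalization. No column lacked a sample.

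Counts were filtered with filterByExpr (minimum count 10, minimum total 15; 15961 genes), scaled with TMM factors and fitted as 4 group means in edgeR 4.0.16 (R 4.3.3; glmQLFit, glmQLFTest), p-values being adjusted over the 15961 genes by Benjamini-Hochberg and called at 0.05. The SE of a log2 fold change was obtained as its size over the root of the F statistic. The script was tested on simulated counts. DESeq2 1.42.0 and the other alternatives are given in the closing section. Same-group libraries differed by more than sampling noise (chi-square per degree of freedom 7.23 to 191), so none was counted as a duplicate. Exon lengths, positions and 3′ UTRs came from the mm9 annotation (GENCODE vM1), and promoters and the miRNA from RefSeq (GRCm38.p6). CPM per kb uses the length of all annotated exons; reads of isoforms were not separated. Log2 CPM used a prior count of 2. Of 9 members, 6 matched a RefSeq promoter entry.

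The members and gene lists were chosen with earlier results of these data known. Named were all 9 members, every other zinc gene called at 2w or 12w, genes of that list without a count, at most 3 called genes of other lists with the largest change at 12w, and the 5 genes most like Slc30a8 and Mt1.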

Additional observations from a re-analysis of the deposited data

Results flagged for a closer look

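The Tg7 effect on Slc30a8 differed between the ages by a test of the difference itself in edgeR: its log2 effect at 12w minus that at 2w was -1.15 (adjusted p = 0.00782), with all 3 Tg7 libraries below all 3 Wt libraries at each age. The Tg7 effect on Slc39a11 differed in the opposite direction by the same test, with a difference of 1.44 (adjusted p = 0.00770), and all 3 Tg7 12w libraries lay above all 3 Wt 12w libraries.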

How the results depend on the processing

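Of 873 values of the 9 members under an alternative (tool, scaling, filter, age alone, replicate block, or 1 of 12 libraries left out), 800 kept direction and call, 15 lost a call, 14 gained one and 44 changed sign; the cause was not tested. The number of members called at 12w stayed at 5 under every alternative with all libraries and was 5 to 6 with 1 library left out. With library size alone they were not the same 5, since Slc30a7 lost its call (-0.45, adjusted p = 0.0980) and Slc39a14 was called higher (0.42, adjusted p = 0.0385). The 2 called at 2w became 0 to 3, the 1 called for the difference 1 to 2, the 4 with age in Wt 3 to 4 and the 2 with age in Tg7 1 to 3 with a library left out. Library size alone left 0 members called for the difference; under it the median of all genes was 0.43 at 12w, 0.19 at 2w and -0.35 with age in Wt. Signs changed only for values that were not called in the fit of the report. With library size alone these were, at 12w, Slc30a5 0.33, Slc39a6 0.15, Slc39a7 0.25 and Slc39a14 0.42; for the difference, Slc39a6 0.24 and Slc39a14 0.16; with age in Wt, Slc30a8 -0.15 and Slc30a5 -0.39; with age in Tg7, Slc30a5 -0.012 and Slc30a7 -0.012. With upper-quartile factors they were Slc39a7 0.00083 and Slc39a14 0.065 at 12w, Slc39a6 0.0093 for the difference and Slc30a5 -0.042 with age in Wt, where no filter gave -0.0099 and the stricter filter -0.0051. Over libraries left out, Slc30a1 at 2w ranged from -0.48 to 0.11; at 12w Slc30a5 ranged from -0.19 to 0.029, Slc39a7 from -0.63 to 0.47 and Slc39a14 from -0.10 to 0.017; the difference for Slc39a6 from -0.18 to 0.11; with age in Wt, Slc30a5 from -0.13 to 0.074, Slc39a6 from -0.15 to 0.15 and Slc39a7 from -0.997 to 0.093; with age in Tg7, Slc39a6 from -0.11 to 0.075. The other zinc genes called at 12w were 4, and 2 with each age fitted alone. At 2w the copper and iron count of 2 ranged from 0 to 7, being 5 with DESeq2, and the glucocorticoid count of 1 from 0 to 2. With a 2w library left out these counts were only 0 to 2 and 0, and the larger ones came from leaving out a 12w library. At 12w the copper and iron count of 5 ranged from 3 to 7 and the glucocorticoid count of 1 from 0 to 2.

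Libraries of the same number are not known to be pairs. Their deviations from group means correlated at -0.0214, -0.167 and -0.0343 at 2w and -0.0894 and -0.0112 at 12w. With means of only 3 libraries, these values cannot show whether pools of the same number were prepared together. With a replicate block, in which Wt 12w library 4 has a number of its own and so drops out of the comparisons, 3 members were called at 2w (Slc30a8 as well, adjusted p = 0.0217), 5 at 12w, 1 for the difference, 4 with age in Wt and 3 with age in Tg7 (Mt1 as well, adjusted p = 0.0469); the signs of Slc30a5 at 12w (0.031) and with age in Wt (-0.13), of Slc39a7 at 12w (0.61) and of the Slc39a6 difference (0.16) changed. Slc39a7 had 10 counts in Wt 12w library 1 and 140 and 242 in the other Wt 12w libraries; the cause was not tested.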
